A study of Rattus norvegicus with 12 samples.

Results

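The levels of 5 ion channel genes of pain-sensing neurons were followed in dorsal root ganglia (DRG) and trigeminal ganglia (TG) of the rat. They are Trpv1 (ENSRNOG00000019486), Trpa1 (ENSRNOG00000007354), P2rx3 (ENSRNOG00000008552), Scn9a (ENSRNOG00000006639) and Scn10a (ENSRNOG00000032473), 5 of the 32662 gene identifiers in the count tables. They were chosen by name for their role in nociceptors, with earlier results of these data known. Their place among all genes is therefore a description. The pairs of identifier and symbol came with that choice, since the tables hold identifiers only. TG and DRG were dissected from 6 naive male Wistar Han rats aged 10 weeks, 2 weeks after their arrival, after anaesthesia and a saline perfusion that cleared the blood. Each rat (R101 to R106) gave 1 poly(A) RNA library per kind of ganglion, which makes 6 TG and 6 DRG libraries from the same 6 animals. The labels name no treatment and no genetic change. Neither the spinal levels of the DRG nor a combining of left and right ganglia is stated in the labels.

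Nociceptors are sensory neurons that respond to harmful heat, cold, pressure or chemicals. Their cell bodies lie in the TG for the face and head and in the DRG for the trunk and limbs. TRPV1 and TRPA1 are cation channels of the TRP family that open at the nerve ending, TRPV1 to heat, acid and capsaicin and TRPA1 to electrophilic irritants such as mustard oil. P2X3, the product of P2rx3, is opened by ATP released from damaged cells. The sodium channels Nav1.7 (Scn9a) and Nav1.8 (Scn10a) turn the resulting depolarization into action potentials, Nav1.7 by amplifying small depolarizations and Nav1.8 by carrying much of the upstroke of the spike in nociceptors.

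Libraries held 11876597 to 17184211 counts in genes. Each of the 5 genes had at least 1203 reads in every library, so counting error alone gives a coefficient of variation of 0.79% to 2.88%. The 5 genes together took 0.274% ± 0.0128 of the counts in DRG and 0.150% ± 0.0104 in TG (SD, n = 6). These sensory neuron genes were thus present in all 12 libraries. Markers of other cell types were not analysed here, because the reference table used here matched none of the identifiers. In whole ganglia, fewer neurons of a type, less RNA per neuron and a larger share of RNA from other cells cannot be told apart. The DRG library of R103 had 30 genes more than 4-fold above each other library of its tissue and the TG library of R104 had 16, against 7 in the TG library of R105 and at most 1 in any other library. Levels are in CPM (counts scaled to library size with TMM factors). They are compared between tissues and not between genes, since longer transcripts give more reads and no transcript lengths were used here.

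Of the 5 channels, 4 were lower in TG, at 43.7% to 56.9% of their DRG level, and 1, Trpa1, was not. Trpv1, P2rx3, Scn10a and Scn9a fell in TG (edgeR's quasi-likelihood test, adjusted p at most 5.6e-08) in 6 of 6 rats. Trpa1 was slightly higher in TG in each rat, by a margin that did not pass the test over the 12 libraries and passed when the 2 ganglia of a rat were paired. Of the 14554 genes tested, 57.3% were called, 27.4% lower and 29.9% higher in TG, and 16.9% were lower in TG without overlap between the libraries of the tissues. The plot of levels by rat shows the 4 falling lines and the rising line of each animal.

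**Figure D1:**
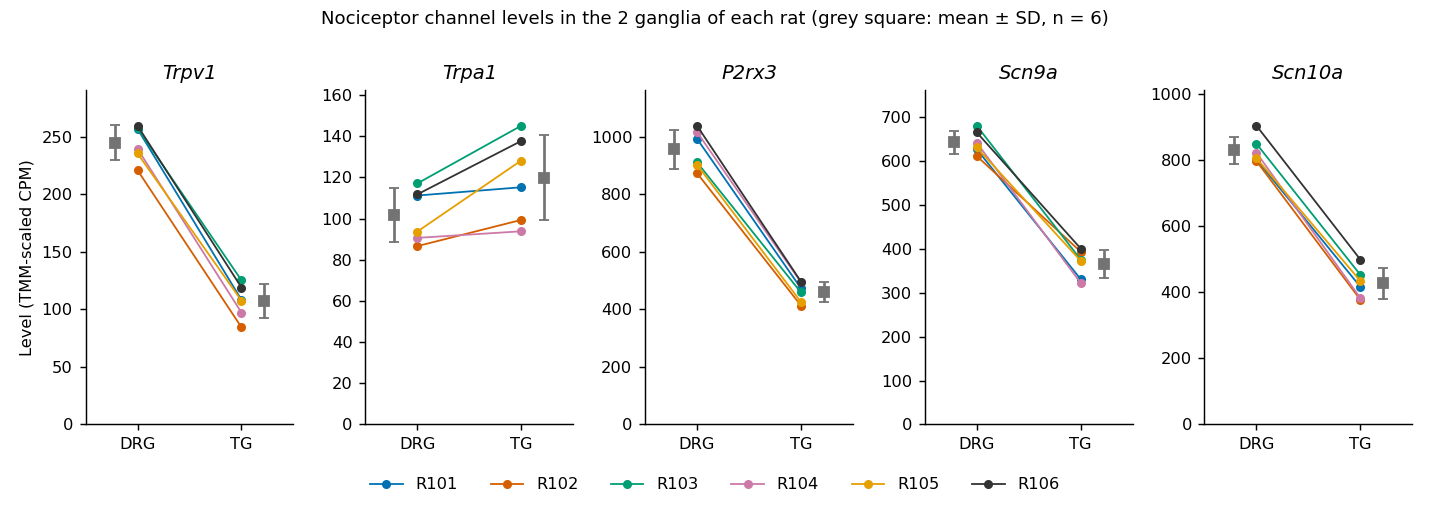
Level of each channel (TMM-scaled CPM, linear axis from 0) in DRG and TG, with 1 line per rat and the mean ± SD (n = 6) as a grey square. All 6 lines fall from DRG to TG for Trpv1, P2rx3, Scn9a and Scn10a, and all 6 rise for Trpa1, where the ranges overlap.

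Of the ligand-gated channels, Trpv1 had the largest fold difference between the ganglia. Its TG level ranged from 84.5 CPM (R102) over a median of 108 CPM to 125 CPM (R103). In DRG it ranged from 221 CPM (R102) over a median of 248 CPM to 259.8 CPM (R106). The highest TG library therefore lay well below the lowest DRG library, and R102 was the lowest rat in both ganglia. Mean levels were 107 ± 14.7 CPM in TG against 245 ± 15.5 CPM in DRG (SD, n = 6), a log2 fold change of -1.20 ± 0.08 (SE) with a 95% interval of -1.37 to -1.02. Trpv1 was 2.29-fold higher in DRG (edgeR, adjusted p = 5.6e-08).

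The other TRP channel of the group, Trpa1, had almost the same level in both ganglia. In TG it ranged from 93.9 CPM (R104) over a median of 122 CPM to 145 CPM (R103). In DRG it ranged from 86.6 CPM (R102) over a median of 102.5 CPM to 117 CPM (R103). The ranges overlap, but within each rat the TG library was the higher of the pair. Mean levels were 119.9 ± 20.7 CPM in TG against 101.8 ± 13.0 CPM in DRG (SD, n = 6), and the log2 fold change was 0.24 ± 0.12 (SE). This did not pass the test without pairing (edgeR, adjusted p = 0.11), whose 95% interval ran from -0.03 to 0.50, that is from 0.98-fold to 1.42-fold. With the rat as a replicate block the estimate was 0.23 ± 0.05 (SE) and passed (edgeR, adjusted p = 0.0019), as did 60.7% of the genes tested in that fit. Without the TG library of R104 the unpaired fit also passed (edgeR, log2 fold change 0.30, adjusted p = 0.041), as it did without that library and the DRG library of R103 together (edgeR, 0.34, adjusted p = 0.025). Over all 28 alternatives for Trpa1 the adjusted p ran from 0.0019 with the block to 1.0 in edgeR's test against a fold of 1.5.

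P2rx3, the ATP receptor, differed by nearly the same factor in every animal. Its TG level ranged from 414 CPM (R102) over a median of 466 CPM to 497 CPM (R106). Its DRG level ranged from 874 CPM (R102) over a median of 953 CPM to 1039 CPM (R106). The tissues do not overlap, and the lowest and the highest rat were the same in both. The means were 461 ± 34.7 CPM and 957 ± 68.6 CPM (SD, n = 6), and the log2 fold change was -1.05 ± 0.05 (SE), with an edgeR adjusted p = 5.0e-10. P2rx3 was 2.08-fold higher in DRG, and its 95% interval of -1.17 to -0.94 includes a change of exactly 2-fold. Calls with an estimate of at least 2-fold lower in TG, which Trpv1 and P2rx3 both had, were made for 3.74% of the genes tested.

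The sodium channels had smaller fold differences, though that of Scn10a was not separable from that of P2rx3 (exact permutation test of their ratio, adjusted p = 0.24). Scn10a (Nav1.8) ranged from 377 CPM (R102) over a median of 425 CPM to 499 CPM (R106) in TG, and from 798 CPM (R102) over a median of 815 CPM to 905 CPM (R106) in DRG. Its mean was 427 ± 45.7 CPM in TG against 831 ± 41.0 CPM in DRG (SD, n = 6), and the log2 fold change was -0.96 ± 0.06 (SE), with an edgeR adjusted p = 7.5e-09. Nav1.8 transcripts were thus 1.94-fold higher in DRG, with no overlap between the tissues. Scn9a (Nav1.7) ranged from 322 CPM (R104) over a median of 374 CPM to 401 CPM (R106) in TG, and from 611 CPM (R102) over a median of 636 CPM to 680.4 CPM (R103) in DRG. Its means were 366 ± 32.4 CPM and 643 ± 25.7 CPM (SD, n = 6), and the log2 fold change was -0.81 ± 0.05 (SE), with an edgeR adjusted p = 2.4e-09. This 1.76-fold difference was the smallest of the 4, again with no overlap. In the RefSeq gene table (GRCr8), P2rx3 overlaps Ssrp1, Scn9a a pseudogene, and Scn10a a non-coding and a protein-coding locus, while no gene of that table overlaps Trpv1 or Trpa1. Reads in such overlaps cannot be assigned with certainty, as no source used here gives the strand setting of the counting.

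Most genes differed less between the ganglia, in either direction, than these 4 channels. The median size of the log2 fold change, without its sign, was 0.23 over all 14554 tested genes. A larger size than that of Trpv1 was seen in 6.16% of them, than that of P2rx3 in 7.78%, than that of Scn10a in 9.17% and than that of Scn9a in 11.89%. Trpa1 was close to the median, with 48.2% of genes above it. With the sign, the median was 0.01 over all tested genes, which the scaling holds near 0, and -0.96 over the 5 channels, of which Trpa1 goes the other way. Only 2.67% of the tested genes had a lower value than Trpv1. The corresponding share was 3.55% for P2rx3, 4.16% for Scn10a and 5.45% for Scn9a. Trpa1 sat on the other side, with 25.6% of genes above it. Among the 2085 genes with a mean of 100 to 1000 CPM, which all 5 channels belong to, 1.44% lay below Trpv1 and 3.55% below Scn9a, and 13.3% lay above Trpa1. The ranks by CPM among the tested genes moved accordingly. P2rx3 was the gene at rank 100 in DRG and at rank 235 in TG, Trpv1 at rank 707 and 1954, and Trpa1 at rank 2152 and 1689. In the histogram of all tested genes, the 4 channels lie in the left flank.

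**Figure D2:**
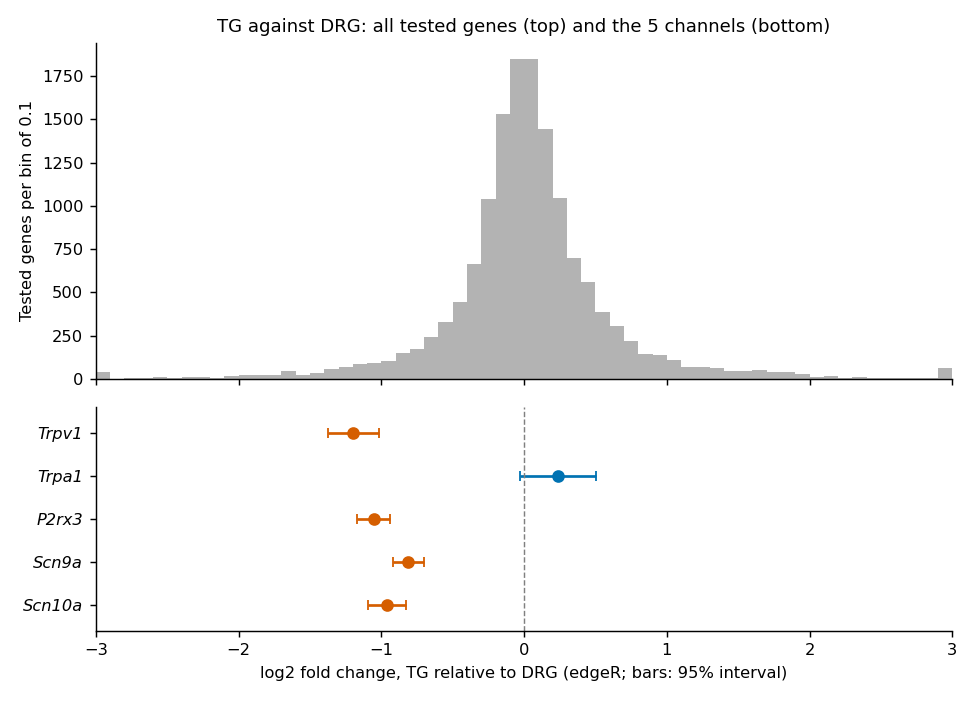
Top, number of the 14554 tested genes by log2 fold change of TG relative to DRG, in bins of 0.1, with genes beyond the axis limits put in the end bins. Bottom, the 5 channels with their 95% intervals, orange where the adjusted p was under 0.05 and blue where it was not. The interval of Trpa1 includes 0 and those of the other 4 lie left of it.

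Sequences in front of the channel genes are shown where the reference held a start site. It held none for Trpa1, so the 4 genes shown are also the 4 that fell, and no comparison with Trpa1 was possible. RefSeq start sites of the build GRCr8 were matched by symbol for 4 of the 5 channels, and the 250 bases before each start were read 5′ to 3′ on the strand of the gene. The windows are chr10:58349686-58349935 (plus strand) for Trpv1, chr3:90531316-90531565 and chr3:90529310-90529559 (minus strand) for the 2 starts of P2rx3, chr3:71701378-71701627 (minus strand) for Scn9a and chr8:128340299-128340548 (minus strand) for Scn10a. Capitals mark a match to one of 6 short motifs searched on both strands.
Trpv1: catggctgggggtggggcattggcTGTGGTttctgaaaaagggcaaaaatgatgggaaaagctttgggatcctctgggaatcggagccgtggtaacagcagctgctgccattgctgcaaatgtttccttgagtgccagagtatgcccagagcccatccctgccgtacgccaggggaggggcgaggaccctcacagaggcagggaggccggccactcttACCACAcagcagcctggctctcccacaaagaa
P2rx3 start 1: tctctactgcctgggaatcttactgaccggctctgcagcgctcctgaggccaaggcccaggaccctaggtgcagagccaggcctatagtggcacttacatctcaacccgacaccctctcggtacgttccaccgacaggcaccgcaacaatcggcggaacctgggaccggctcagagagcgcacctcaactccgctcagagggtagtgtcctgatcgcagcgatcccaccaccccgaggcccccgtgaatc
P2rx3 start 2: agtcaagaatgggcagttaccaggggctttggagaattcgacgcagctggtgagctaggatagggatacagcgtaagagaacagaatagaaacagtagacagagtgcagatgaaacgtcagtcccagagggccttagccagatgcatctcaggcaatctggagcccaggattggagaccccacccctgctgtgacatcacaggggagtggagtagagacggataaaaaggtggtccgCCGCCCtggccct
Scn9a: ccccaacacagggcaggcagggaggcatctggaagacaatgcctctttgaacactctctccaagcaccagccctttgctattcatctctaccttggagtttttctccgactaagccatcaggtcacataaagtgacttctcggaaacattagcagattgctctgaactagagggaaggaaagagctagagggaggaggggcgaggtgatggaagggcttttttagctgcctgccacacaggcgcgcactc
Scn10a: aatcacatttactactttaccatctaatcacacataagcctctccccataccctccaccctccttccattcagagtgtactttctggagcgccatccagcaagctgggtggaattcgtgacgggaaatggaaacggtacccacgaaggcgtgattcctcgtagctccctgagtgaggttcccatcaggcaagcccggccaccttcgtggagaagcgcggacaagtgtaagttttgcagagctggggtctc
The core TGTGGT, bound by RUNX factors, was found in 14.5% of all 33469 windows of this length. Trpv1 held it on each strand, starting 226 and 32 bases before the start site. The GC box, searched as GGGCGG, was found in 30.5% of all windows, and the second P2rx3 start held it on the other strand. The other 4 motifs had no match in these windows. One was the TATA box, searched as TATAAA and found in 12.9% of all windows. The homeodomain motif was searched as TAATTA and found in 4.86%. For the cyclic AMP response element the letters were TGACGTCA, found in 1.59%. Lastly, the E-box was searched as CACGTG and found in 5.59%. No match overlapped another, and no motif was found in front of more than 1 of these genes. GC content was 62.4% at the first P2rx3 start and 54.4% at the second, 58.4% for Trpv1, 53.2% for Scn10a and 52.4% for Scn9a, against a median of 51.2% over all windows.

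Paired by rat, the direction of each difference was the same in all animals, while its size varied least for P2rx3 and, relative to its mean, most for Trpa1. The DRG level of P2rx3 was 1.99 (R103) to 2.12 times (R105) the TG level of the same rat, the tightest range of the 5. That of Trpv1 was 2.06 (R103) to 2.62 times (R102), that of Scn10a 1.81 (R106) to 2.15 times (R104) and that of Scn9a 1.55 (R102) to 1.99 times (R104). For Trpa1, the TG level was 1.04 (R104) to 1.37 times (R105) the DRG level. The ratios of R101 and R104, both 1.04, are near what counting error in 2 libraries alone can give, so their sign is uncertain. The mean log2 ratio of TG to DRG within rats was -1.21 ± 0.13 for Trpv1, 0.23 ± 0.16 for Trpa1, -1.05 ± 0.04 for P2rx3, -0.82 ± 0.13 for Scn9a and -0.97 ± 0.10 for Scn10a (SD, n = 6 rats). Each channel had the same sign in 6 of 6 rats. An exact two-sided sign-flip permutation test therefore gave p = 0.031 for each of the 5 (adjusted 0.031), the smallest p that 6 rats allow.

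Whether the channels differed from each other in this respect was tested with ratios of reads within a library, which need no scaling between libraries. Trpa1 stood apart from all 4 others, and Trpv1 fell more than the sodium channels. For every 100 reads of Trpa1, DRG libraries held 220.1 to 264 reads of Trpv1 and TG libraries 84.0 to 103.6. Trpv1 reads thus outnumbered Trpa1 reads in every DRG library, while in TG they did so only in the library of R104. As transcript lengths were not used, equal reads are not equal transcript numbers. Only the shift of the ratio between the tissues is compared. This ratio of Trpv1 to Trpa1 was 2.70-fold lower in TG, a log2 difference of -1.43 ± 0.06 (SE) seen in 6 of 6 rats. An exact two-sided permutation test that takes the libraries as independent gave p = 0.0022 (adjusted 0.0036 over 10 pairs). Sign flips within rats gave p = 0.031 (exact, adjusted 0.035), the smallest p that 6 rats allow.

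Relative to the other channels, Trpa1 was also higher in TG. Per 100 reads of P2rx3 there were 25.8 Trpa1 reads in TG and 10.6 in DRG, a 2.43-fold difference. Per 100 reads of Scn10a there were 27.9 and 12.2 (2.29-fold), and per 100 reads of Scn9a 32.5 and 15.8 (2.06-fold). All 3 shifts were seen in 6 of 6 rats (exact permutation test, adjusted p = 0.0036 each, and 0.035 each with sign flips within rats).

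Among the 4 channels that fell, the order was Trpv1, P2rx3, Scn10a, Scn9a, and its neighbours were not all separable. Trpv1 and P2rx3 differed by -0.15 ± 0.08 (SE) on the log2 scale, lower for Trpv1 in 6 of 6 rats. This did not pass without pairing (exact permutation test, adjusted p = 0.12) and passed with sign flips within rats (exact, p = 0.031, adjusted 0.035). Without the TG library of R104 and the DRG library of R103 the difference was -0.08 (exact permutation test, adjusted p = 0.37). P2rx3 and Scn10a differed by -0.09 ± 0.07 (SE), in 4 of 6 rats, and did not pass either way (exact permutation test, adjusted p = 0.24, and 0.13 with sign flips). Without the same 2 libraries that difference was -0.16 and passed (exact permutation test, adjusted p = 0.044). Scn9a was the least reduced. Its ratio to Scn10a was 1.11-fold higher in TG in 6 of 6 rats, a log2 difference of 0.15 ± 0.06 (SE). This passed without pairing (exact permutation test, adjusted p = 0.0062) and with sign flips within rats (exact, adjusted p = 0.035). Without rat R102, whose TG library had the highest such ratio, the difference was 0.09 (exact permutation test, adjusted p = 0.023). The ratio of Trpv1 to Scn9a was 1.31-fold higher in DRG and that of Trpv1 to Scn10a 1.18-fold higher (exact permutation test, adjusted p = 0.0036 each). Both also passed with sign flips within rats (exact, adjusted p = 0.035 each). The ratio of P2rx3 to Scn9a was 1.18-fold higher in DRG (exact permutation test, adjusted p = 0.035, and 0.035 with sign flips). That last call was lost without rat R102, R103, R105 or R106 (exact permutation test, adjusted p = 0.089, 0.053, 0.089 and 0.12).

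**Figure D3:**
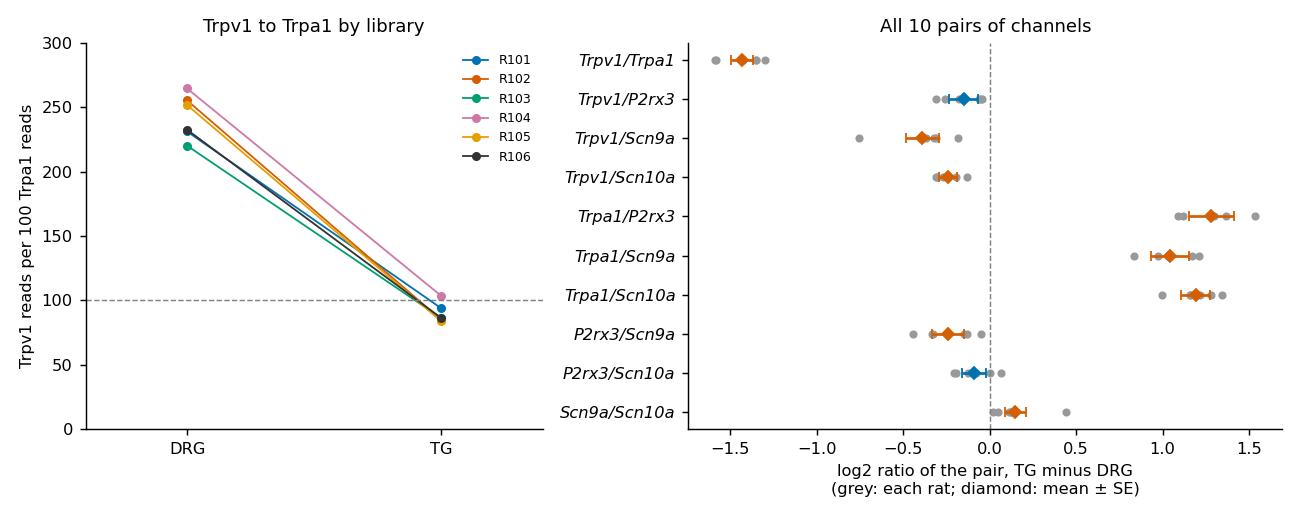
Left, Trpv1 reads per 100 Trpa1 reads in DRG and TG, 1 line per rat, with a dashed line at 100 (equal reads, not equal transcript numbers). Right, log2 ratio of each pair of channels, TG minus DRG, with each rat in grey and the mean ± SE as a diamond, orange where the adjusted p was under 0.05; the 4 pairs with Trpa1 lie farthest from 0.

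The level of 3 of the 5 channels differed by rat over both ganglia. A rat is known here only by its TG and its DRG library. The animal therefore cannot be told apart from any handling that both libraries shared, and which of them the difference reflects was not tested. In a fit with rat and tissue, a test chosen after the data were seen, P2rx3 (edgeR, adjusted p = 0.0081), Trpa1 (adjusted p = 0.019) and Trpv1 (adjusted p = 0.041) depended on the rat. Scn10a missed the threshold (edgeR, adjusted p = 0.060 and 0.045 with DESeq2 size factors), and Scn9a did not pass (adjusted p = 0.47). Of all genes tested, 3.66% were called for the rat, which is 533 genes, against 340 without R103. Leaving out a rat ended the call of Trpv1 in 4 of 6 cases (R101, R102, R103 and R106; largest adjusted p = 0.12) and that of Trpa1 without R102 or R103 (edgeR, adjusted p = 0.080 and 0.094). P2rx3 kept its call each time.

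The same can be read from the levels. Rat R102 was lowest for P2rx3, Trpv1 and Scn10a in both ganglia, R106 was highest for P2rx3 and Scn10a in both, and R103 was highest for Trpa1 in both. Over the 6 rats, the order of P2rx3 levels was identical in TG and DRG, with Pearson r = 0.95 (exact permutation p = 0.0028, adjusted 0.014 over 5 channels) and Spearman rho = 1.0 (exact p = 0.0028, adjusted 0.014). Without the 2 rats farthest from the TG median (R102 and R105) r was 0.94. For Trpv1 r was 0.89 (exact permutation p = 0.021, adjusted 0.051), with rho = 0.89 (adjusted 0.056). For Scn10a r was 0.82 (exact permutation p = 0.031, adjusted 0.051), with rho = 0.83 (adjusted 0.073). For Trpa1 r was 0.78 (exact permutation p = 0.10, adjusted 0.13), with rho = 0.89 (adjusted 0.056). Only P2rx3 passed the correction. Without the 2 farthest rats of each channel, r fell to 0.69 for Trpv1, 0.34 for Scn10a and 0.32 for Trpa1. Those rats were R102 and R103 for Trpv1, R102 and R106 for Scn10a, and R102 and R104 for Trpa1. These 3 relations rest in part on those rats. Leaving out the farthest values also narrows the range, which by itself can lower r. Scn9a levels in the ganglia of a rat were hardly related, with r = 0.19 (exact permutation p = 0.72, adjusted 0.72) and rho = 0.14. The median r over all tested genes was 0.22, and 98.7% of them had a lower r than P2rx3.

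**Figure D4:**
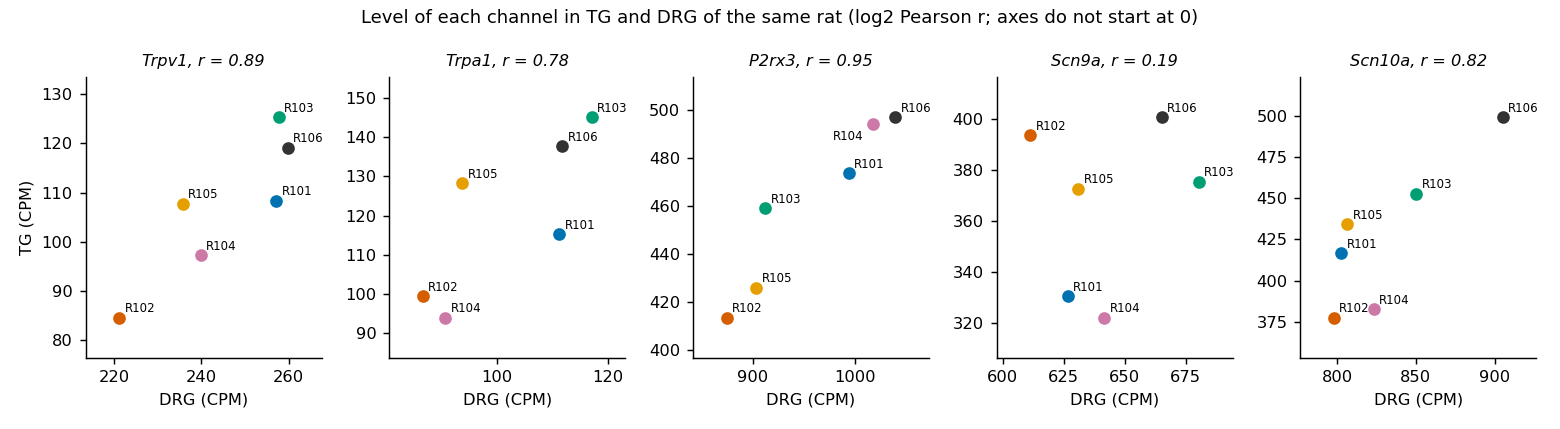
Level of each channel in TG (vertical axis, CPM) against DRG (horizontal axis, CPM), 1 point per rat; axes do not start at 0. Points of P2rx3 rise in the same order on both axes (r = 0.95) and those of Scn9a show no common order (r = 0.19).

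The spread between rats was described for each channel, with no test between channels. In TG, the coefficient of variation was 17.3% for Trpa1, 13.8% for Trpv1, 10.7% for Scn10a, 8.86% for Scn9a and 7.54% for P2rx3. In DRG it was 12.7% for Trpa1, 6.34% for Trpv1, 4.94% for Scn10a, 4.0% for Scn9a and 7.17% for P2rx3. Trpa1 had the highest value of the 5 in either tissue. Its SD of log2 CPM was above that of 80.2% of the tested genes in TG and of 71.9% in DRG, and that of Scn9a in DRG was above 16.3%. These shares include genes of all levels. Among the 2085 genes at 100 to 1000 CPM, the median SD was 0.066 in TG and 0.058 in DRG. Trpa1 had 0.255 in TG and 0.185 in DRG, well above these medians. The other channels were above the TG median as well, with 0.205 for Trpv1, 0.152 for Scn10a, 0.130 for Scn9a and 0.110 for P2rx3. In DRG, P2rx3 (0.104), Trpv1 (0.093) and Scn10a (0.070) were also above the median. Only Scn9a, with 0.057 in DRG, was close to the median of genes at its level.

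Trpv1 and Trpa1, the 2 TRP channels, varied together from library to library although their tissue difference was unlike. With the mean of each tissue removed, their log2 CPM correlated with r = 0.89 over the 12 libraries (0.89 over TG and 0.94 over DRG libraries alone). Scn10a had r = 0.83 to Trpv1 (0.87 in TG and 0.64 in DRG) and 0.81 to Trpa1 (0.91 in TG and 0.59 in DRG). P2rx3 went less with them, at 0.49 to Trpv1, 0.40 to Scn10a and 0.20 to Trpa1, and had r = -0.19 to Scn9a. Scn9a had r = 0.54 to both Trpa1 and Scn10a and 0.22 to Trpv1, and each was higher within DRG than within TG. To Trpv1 it was 0.12 in TG and 0.75 in DRG, to Trpa1 0.50 and 0.73, and to Scn10a 0.49 and 0.80. Whether the tissues differ in these values was not tested. Trpa1 was the gene at rank 29 of all tested genes by likeness to Trpv1, and Trpv1 was also at rank 29 by likeness to Trpa1. The 3 genes most like each channel carry identifiers without a symbol here, with r of 0.94 to 0.96 for Trpv1 and Trpa1, 0.94 to 0.95 for Scn10a, 0.94 to 0.98 for Scn9a and 0.89 to 0.93 for P2rx3. These correlations are descriptions. The points share a library, its depth and, in pairs, the animal.

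**Figure D5:**
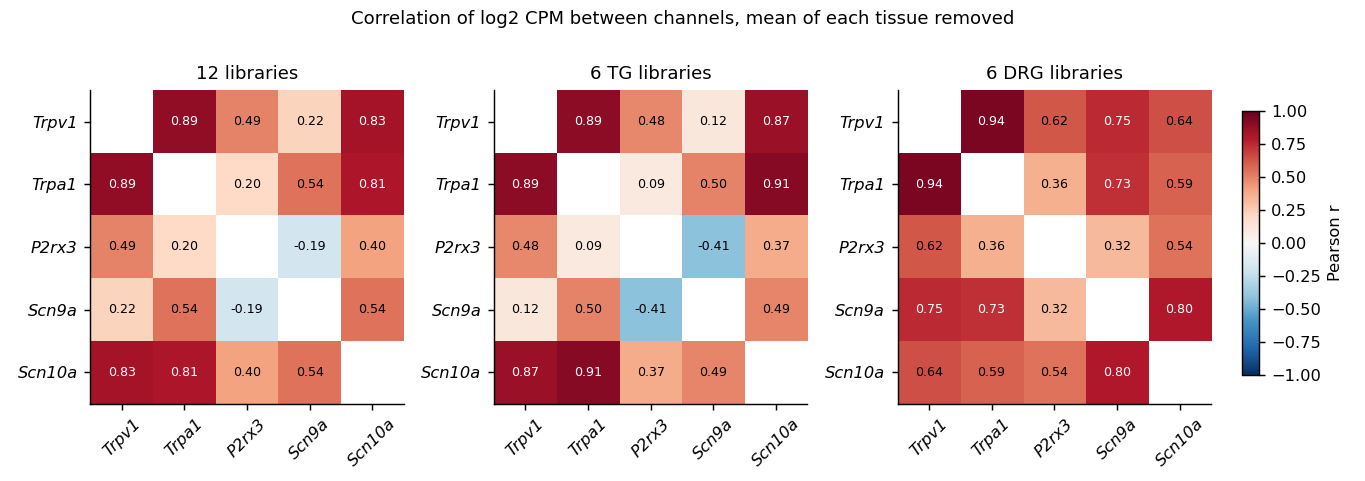
Pearson correlation of log2 CPM between the channels after the mean of each tissue was removed, over all 12 libraries, the 6 TG and the 6 DRG libraries (red positive, blue negative, scale from -1 to 1). Trpv1, Trpa1 and Scn10a form the block of high values in TG, and P2rx3 with Scn9a gives the one negative value in each of the first panels (-0.19 and -0.41) and a positive one (0.32) in DRG.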

How the data were processed

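RNA of 6 TG and 6 DRG was selected for poly(A) and sequenced (Illumina HiSeq), as the labels' protocols state. The authors deposited 1 table of raw read counts per library. STAR, HTSeq and the build Rnor_6.0 are named in the submitters' processing notes; no source used here gives versions, annotation or strand setting. The 5 closing rows of reads given to no gene (29.8% to 30.9% of the reads in DRG files and 33.3% to 34.3% in TG files) were left out. Reads aligned to several places are among them, so stretches shared between sodium channel genes may be undercounted.

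Counts were filtered with filterByExpr (14554 genes kept), scaled with TMM and fitted with edgeR 4.0.16 (R 4.3.3; robust quasi-likelihood test, tissue as the only term). P-values were adjusted over all tested genes (Benjamini-Hochberg, threshold 0.05). CPM use TMM-scaled totals, and log2 CPM a prior count of 2. Ratios of reads between channels used a pseudocount of 0.5 and exact permutation of the 924 splits of 6 against 6 libraries, or of the 64 sign patterns of 6 rats; correlations used all 720 orders. The edgeR fit was tested on simulated counts with the same spread setting for all genes and no difference between rats. That test does not cover the pairing of libraries.

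The numbers pair the samples, since both libraries of a number come from 1 rat. They deviated from their tissue means together (r across genes 0.23 to 0.34, against -0.14 to 0.10 for different rats). Alternatives were the rat as a block, other scalings, filters and tools (DESeq2 1.42.0, limma 3.58.1), and leaving out rats or libraries. P-values of the unpaired tests of tissue set its difference against the spread between libraries. Those of the paired tests set it against the spread of the differences within rats. All rest on these animals.

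The channels and lists were chosen with earlier results of these data known. The channels were always named, and no other gene was to be named without a symbol; 1 identifier below was chosen after its values were seen. The lists of related channels, receptors and cell type markers were not analysed here, as no identifier matched the reference table.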

Additional observations from a re-analysis of the deposited data

Results flagged for a closer look

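The TG library of R102 was flagged for its balance of the 2 sodium channels. It held 104.2 Scn9a reads per 100 Scn10a reads, the only library of the 12 with more Scn9a than Scn10a reads, and the next highest TG library held 85.8. The gap took 0.741 of the range of the 6 TG libraries, against a limit of 0.625. In DRG the same rat was at 76.6, within the range of the other rats (73.5 to 80.03). Its Scn9a level in TG (393 CPM) was the second highest of that tissue and its Scn10a level (377 CPM) the lowest. Of 35 sets of 6 values examined, this was the 1 flagged, where chance flags about 1 in 20. A single flag among 35 sets is no more than that rate gives. Without rat R102 the ratio of Scn9a to Scn10a was still higher in TG (log2 difference 0.09; exact permutation test, adjusted p = 0.023).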

How the results depend on the processing

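Trpv1, P2rx3, Scn9a and Scn10a kept their direction and their call in all 28 alternatives to the edgeR fit, with log2 fold changes of -1.25 to -1.14, -1.09 to -1.01, -0.85 to -0.76 and -1.01 to -0.92. Trpa1 was higher in TG in all 28 and passed in 3: with the rat as a replicate block (0.23), without the TG library of R104, and without that library and the DRG library of R103 together (0.34, chosen after seeing the data). Leaving out rats or libraries gave 0.17 to 0.30. The replicate block changed no other call of a channel. Over all genes, the test against a fold of 1.5 called 1507 by its construction (846 higher, 661 lower, against 8341, 4354 and 3987). With 5 rats, sign flips cannot give a p under 0.063; the within-rat log2 ratios then ranged from -1.24 to -1.17 (Trpv1), 0.18 to 0.26 (Trpa1), -1.07 to -1.05 (P2rx3), -0.85 to -0.78 (Scn9a) and -0.99 to -0.94 (Scn10a). The log2 difference of P2rx3 against Scn9a was -0.28 to -0.20 with 5 rats. Paired by rat (replicate block), the Trpv1 to P2rx3 difference of -0.15 passed. P2rx3 against Scn10a passed (-0.16, adjusted p = 0.044, exact permutation) only without the TG library of R104 and the DRG library of R103. The other ratio calls held in each alternative. With 4 rats the same-rat r of P2rx3 was 0.94, at the smallest exact p that 4 rats allow (0.042, adjusted 0.21 over 5 channels), and that of Scn9a changed sign (-0.11). For dependence on the rat, F for Scn10a (6.48) passed with DESeq2 size factors (6.99) and with no low-count filter (7.05), and without rat R104 or R105 (edgeR, adjusted p = 0.038 and 0.046), and ranged from 2.93 to 8.82 with 5 rats; F was 5.11 to 9.90 for Trpv1 and 8.23 to 21.7 for Trpa1. With no filter, 935 genes depended on the rat, against 533, and 340 to 580 with 5 rats. The causes were not tested. Counting error of the channels was at most 2.88% in a single library, and a ratio of TG to DRG carries the error of 2 libraries. The Trpa1 ratios of R101 and R104, both 1.04, are near that error. For the counts over all genes, the effect of depth was not tested.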

Other observations

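Among called genes with a mean of at least 1 CPM in TG, the gene with the largest increase there was ENSRNOG00000031927, chosen after its values were seen. It was set against the channels over the TG libraries, and no relation passed the correction. It was at 25.9 CPM in R106, 30.6 in R105, 49.8 in R101, 52.4 in R103, 68.5 in R104 and 73.4 in R102, and at most 0.37 CPM in any DRG library. Over the 6 TG libraries its log2 CPM had r = -0.86 to Scn10a (exact permutation p = 0.033, adjusted 0.17 over 5 channels; rho = -0.83; r = -0.86 without R105 and R106). The other values were -0.72 to Trpa1, -0.63 to Trpv1, -0.42 to Scn9a and -0.20 to P2rx3 (exact permutation, adjusted p = 0.29, 0.30, 0.51 and 0.69; rho = -0.60, -0.60, -0.26 and -0.49; r without R105 and R106 -0.78, -0.87, 0.24 and -0.39). Set against the channels in the DRG of the same rats, where this gene is nearly absent, r was also negative for all 5, from -0.58 for Scn10a to -0.30 for P2rx3 (exact permutation, adjusted p = 0.52 each). What this gene's tissue source is, and its part in the TG levels of the channels, was not tested.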
